A study of Mus musculus with 7 samples.

Results

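Immediate early genes are switched on within minutes of a growth factor or stress signal, without the need for new protein synthesis. The 10 genes described here were the Fos family members Fos, Fosb and Fosl1, the Jun family members Jun, Junb and Jund, the zinc finger factor gene Egr1, the nuclear protein gene Ier2, the stress-induced factor gene Atf3 and the proto-oncogene Myc. They were picked by symbol, through the mouse Gencode annotation of GRCm38 with version numbers of the gene identifiers ignored, out of 55335 genes in the count files. All 10 had counts, and 7 were among the 13305 genes that passed the filter on low counts. Fosb, Fosl1 and Atf3 did not pass it.

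The counts came from cultured neural stem cells (NSCs) of FVB/N mice, precursors that can form neurons and glia. There were 4 wild-type (WT) samples, with the genotype given as Smchd1 wild-type, and 3 Smchd1-null samples, which carry the MommeD1 mutation of Smchd1, a chromatin repressor gene. All cultures were grown in NSC medium with EGF and bFGF, and no age or sex was given in the sources used here. Polyadenylated RNA was sequenced as unamplified cDNA on nanopore flow cells in 2 batches, with the DCS108 kit in batch 1 and the DCS109 kit in batch 2: batch 1 alone covered WT replicate 2 with Smchd1-null replicates 1 and 2, batch 2 alone covered Smchd1-null replicate 3 with WT replicates 3 and 4, and WT replicate 1 had reads from both. No label said whether the replicates were separate animals, so p-values measure the spread between these samples, which may be technical.

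In textbook accounts, EGF and FGF receptors act through Ras and the kinases Raf, MEK and ERK on factors already bound at immediate early promoters, such as SRF with its partners of the Elk family. Fos and Jun family proteins then pair through leucine zippers to form AP-1, which binds DNA, and feedback phosphatases and Sprouty proteins dampen the cascade. The mRNAs are short-lived, so their levels in a dividing culture follow recent signalling and also the handling of the cells before lysis.

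Promoter windows of 300 bases on GRCm38.p6 came from a RefSeq table that matched 6 of the 10 genes, namely Fos, Fosb, Jun, Junb, Jund and Atf3. The Jund and Atf3 windows lie away from the Gencode start of their genes. The Fos, Jun and Junb windows are shown because these AP-1 subunit genes passed the count filter and their windows cover the Gencode start. Capitals mark letters of the motifs searched on both strands: TATAAA, the TATA box; TGACG, the first letters of the cyclic AMP response element TGACGTCA, which therefore also match any full element; TGACATCA, a variant AP-1 site known from the Jun promoter; the AP-1 site as TGACTCA or TGAGTCA; GCGNGGGCG, the site of EGR factors; and the serum response element. The windows lie at chr12:85473640-85473939 on the plus strand (Fos), chr4:95052173-95052472 on the minus strand (Jun) and chr8:84978699-84978998 on the minus strand (Junb), and run 5′ to 3′ from 250 bases before to 50 bases after the RefSeq start. For Fos and Jun this is also the Gencode start. For Junb the Gencode start, at chr8:84978718, lies downstream of the RefSeq start.
Fos: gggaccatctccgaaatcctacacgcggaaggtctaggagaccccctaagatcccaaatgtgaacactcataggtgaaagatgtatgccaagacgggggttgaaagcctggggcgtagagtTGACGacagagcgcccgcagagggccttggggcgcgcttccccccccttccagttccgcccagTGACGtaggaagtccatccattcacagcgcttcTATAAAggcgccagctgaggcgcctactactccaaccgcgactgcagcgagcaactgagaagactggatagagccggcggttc
Jun: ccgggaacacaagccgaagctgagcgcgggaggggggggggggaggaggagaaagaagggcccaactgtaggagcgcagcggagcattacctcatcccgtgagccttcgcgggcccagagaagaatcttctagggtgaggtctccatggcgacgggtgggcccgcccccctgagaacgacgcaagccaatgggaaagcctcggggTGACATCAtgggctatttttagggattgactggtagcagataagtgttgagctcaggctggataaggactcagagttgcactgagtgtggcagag
Junb: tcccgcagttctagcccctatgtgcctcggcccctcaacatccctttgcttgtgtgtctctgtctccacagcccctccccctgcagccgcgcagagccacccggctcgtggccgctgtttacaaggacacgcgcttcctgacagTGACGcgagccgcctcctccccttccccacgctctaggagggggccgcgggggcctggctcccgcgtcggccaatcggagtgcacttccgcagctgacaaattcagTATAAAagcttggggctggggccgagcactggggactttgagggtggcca

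In the Fos window TATAAA was found from position -33 to -28 and TGACG from -129 to -125 and from -66 to -62, counted from the RefSeq start. In Jun the variant AP-1 site was found from -45 to -38, and in Junb TGACG from -106 to -102 and TATAAA from 1 to 6. The Junb TATAAA thus lies at the RefSeq start but upstream of the Gencode start. No serum response element, full cyclic AMP response element or TGACTCA or TGAGTCA site was matched in any of the 6 windows. Those of Jund and Atf3 may not cover the promoter used. A window of 300 bases cannot show an element further upstream, so this does not mean that the genes lack these elements. Of 32851 windows of all RefSeq genes, 13.6% held TATAAA, 20.8% TGACG and 3.62% the variant AP-1 site. Only 1.63% held a serum response element, 1.79% the full cyclic AMP response element and 5.2% TGACTCA or TGAGTCA. With shares this low, the lack of a match in 6 windows does not set these genes apart. The matches describe the letters in a window and are not sites of binding.

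A second set of sequences shows the base composition of the coding sequence in Jund, Junb and Fos. Each is the stretch of 120 bases with the highest GC content within 1 exon of the coding sequence of the longest protein-coding transcript (Gencode M21, GRCm38), with runs of 6 or more G and C in capitals. The Jund stretch is at chr8:70699634-70699753 on the plus strand, in its only exon, the Junb stretch at chr8:84977896-84978015 on the minus strand, in the only exon of that transcript, and the Fos stretch at chr12:85475002-85475121 on the plus strand, in exon 2 of 4.
Jund: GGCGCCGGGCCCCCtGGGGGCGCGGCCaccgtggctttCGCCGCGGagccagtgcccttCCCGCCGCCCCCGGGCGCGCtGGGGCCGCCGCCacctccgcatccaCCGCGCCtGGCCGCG
Junb: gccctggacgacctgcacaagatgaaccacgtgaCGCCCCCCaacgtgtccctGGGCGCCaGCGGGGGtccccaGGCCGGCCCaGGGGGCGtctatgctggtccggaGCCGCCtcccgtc
Fos: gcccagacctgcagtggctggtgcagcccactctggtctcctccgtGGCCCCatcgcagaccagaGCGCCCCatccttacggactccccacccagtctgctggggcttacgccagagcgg

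The GC content of these stretches was 85.0% in Jund, 73.3% in Junb and 68.3% in Fos. Over the whole coding sequence it was 70.7%, 64.8% and 58.6%. Jund and Junb are the members with the most GC-rich transcripts, and Fos the tested member with the least GC-rich one.

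Library sizes were 2.74 to 7.74 M counts. The deposited counts were scaled to CPM, counts per 1 M of library size corrected by TMM normalisation. The targeted gene followed the labels, with Smchd1 at 55.7 to 74.7 CPM in WT and 12.8 to 18.4 CPM in Smchd1-null samples (log2 fold change -2.15, SE 0.18, adjusted p = 0.000110). The 10 NSC markers, which include Nes and Sox2, summed to 8460 to 13655 CPM, while microglial markers summed to 3.46 to 8.26 CPM, endothelial markers to 0.444 to 5.32 CPM and fibroblast markers to 0 to 3.77 CPM. WT replicate 4 stood apart, with summed astrocyte markers at 313 CPM against 112 to 190.1 CPM in the other samples, neuron markers at 77.3 against 26.6 to 37.6 CPM, oligodendrocyte markers at 1163 against 844 to 942 CPM, and the lowest sample weight in the fit (0.447). It also had the highest sum of NSC markers, at 13655 CPM against 8460 to 10646.5 CPM in the other samples. In bulk samples fewer cells of a type and less RNA per cell cannot be told apart.

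Egr1 and Myc had the most counts of the 10 genes, and Fosl1 the fewest. Summed over the 7 samples, there were 7067 counts of Egr1, 4656 of Myc, 3699 of Jun, 1888 of Jund, 1183 of Ier2, 936 of Fos and 865 of Junb. Atf3, Fosb and Fosl1 had 21, 12 and 6. Means are given ± SD over the 4 WT or the 3 Smchd1-null samples. Together the 10 genes took 0.0588 ± 0.0058% of the WT counts and 0.0631 ± 0.0054% of the Smchd1-null counts. Their summed level was 587 ± 65.0 CPM in WT and 643 ± 62.9 CPM in Smchd1-null samples. This difference of 55.9 CPM did not hold up against the spread (two-sided exact permutation test, p = 0.286; the smallest p that 35 assignments allow is 0.0286). It was 21.1 CPM without Smchd1-null replicate 2 and 86.7 CPM without WT replicate 3.

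The paper states that long-read protocols leave out fragmentation, so in theory gene length should not bias the counts. It also found only a weak association of gene length with expression in the NSC data. In CPM, the median order over the 7 samples was Egr1 (223), Myc (138), Jun (121), Jund (54.2), Ier2 (36.2), Fos (27.9) and Junb (23.4). Division by length, which counts free of length bias would not need, put Myc above Egr1. The order per length is given beside that in CPM and is not taken as the order of abundance. Per length of the gene, the order was Myc (50.7 CPM per kb), Egr1 (49.6), Jun (37.8), Jund (32.5), Ier2 (23.7), Fos (11.9) and Junb (10.2). Each pair of neighbours in this order had overlapping ranges over the samples. Within a sample and per length, Jund was above Ier2 and Ier2 above Fos in 7 of 7 samples, Myc was above Egr1 and Egr1 above Jun in 6 of 7, Jun was above Jund in 5 of 7, and Fos was above Junb in 3 of 7. The deposited gene lengths used were 2717 bases for Myc, 4484 for Egr1, 3189 for Jun, 1668 for Jund, 1524 for Ier2, 2352 for Fos and 2301 for Junb. Jun, Jund and Ier2 are annotated with a single exon each.

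**Figure D1:**
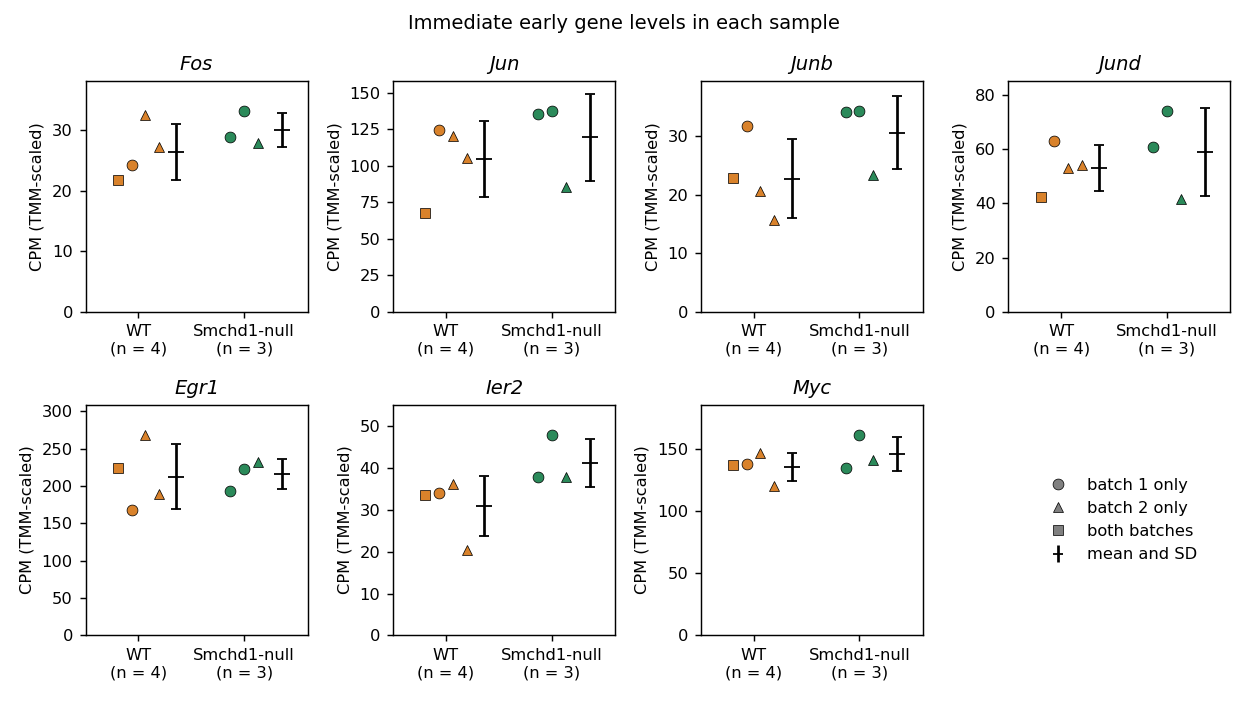
TMM-scaled CPM (vertical axis, from 0) of the 7 genes that passed the filter, for 4 WT (orange) and 3 Smchd1-null samples (green), with marker shape for the batch and black bars for the mean and SD of each genotype. The genotypes overlap in every panel except Ier2, where the Smchd1-null samples lie at 37.9 CPM and above and the WT samples at 36.2 CPM and below.

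Fos encodes the founding partner of Jun in AP-1. Its level was 21.7, 24.2, 32.5 and 27.3 CPM in WT replicates 1 to 4 and 28.9, 33.1 and 27.9 CPM in Smchd1-null replicates 1 to 3. The genotypes overlapped, since WT replicate 3 was above all Smchd1-null samples but replicate 2. The mean was 26.4 ± 4.64 CPM in WT, and 29.99 ± 2.77 CPM without Smchd1. Fosb encodes another Fos protein. It had 1, 1, 0 and 4 counts in WT and 0, 4 and 2 in Smchd1-null samples, close to the 3 counts taken as the floor of detection (0.399 to 1.13 CPM, depending on the sample). Fosl1, which encodes Fra-1, had 0, 2, 2 and 2 counts in WT and 0, 0 and 0 in Smchd1-null samples, all below that floor, so no difference was detectable at this depth. No interval was computed for genes with such low counts. Fosl1 also shares 1163 exonic bases with Ccdc85b on the opposite strand, a gene with 279 to 760 counts, and no strand setting was given for the counting.

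Jun encodes c-Jun, a subunit of AP-1 that can pair with Fos or with itself. It was at 67.6, 125, 121 and 105 CPM in WT replicates 1 to 4 and at 136, 137 and 85.3 CPM in Smchd1-null replicates 1 to 3. WT replicate 1 was lowest, Smchd1-null replicate 3 was next, and the genotypes overlapped. Junb encodes a Jun protein that often opposes c-Jun. It was at 22.95, 31.8, 20.7 and 15.8 CPM in WT and at 34.2, 34.3 and 23.4 CPM in Smchd1-null samples. The WT value of 31.8 CPM was above the Smchd1-null value of 23.4 CPM, so the genotypes overlapped there too. Jund encodes the most steadily expressed Jun protein in many cell types. It was at 42.5, 63.1, 53.0 and 54.2 CPM in WT and at 60.8, 74.1 and 41.8 CPM in Smchd1-null samples, with the lowest and the highest value both in Smchd1-null samples.

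Jun, Junb and Jund overlap annotated genes on the other strand, whose reads could not be told apart from theirs where they share exons. Jun shares 232 bases with the antisense gene Junos, which had 2 to 8 counts. Junb shares 173 bases with Prdx2, which had 955 to 2789 counts, more than Junb itself in all samples. Jund shares 877 bases with Gm11175, which had 0 counts in all samples.

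Egr1 encodes a zinc finger factor that ERK signalling induces. It was the most abundant member in CPM, at 225, 168, 269 and 189.7 CPM in WT replicates 1 to 4 and 193, 223 and 232 CPM in Smchd1-null replicates 1 to 3. The lowest and the highest values were both in WT. Ier2, a short intronless gene induced with Fos, was at 33.5, 34.0, 36.2 and 20.4 CPM in WT and at 37.9, 47.9 and 37.9 CPM in Smchd1-null samples. Here the genotypes did not overlap, and WT replicate 4 lay well below the other 6 samples. Myc, which encodes a driver of growth and proliferation, was at 137, 138, 147 and 119.9 CPM in WT and at 135, 161 and 141 CPM in Smchd1-null samples. Its values were the closest together of the 7 genes, and the genotypes overlapped. Atf3 encodes a stress-responsive factor that pairs with Jun proteins. It had 0, 2, 1 and 3 counts in WT and 1, 11 and 3 counts in Smchd1-null samples, and only the 11 counts of Smchd1-null replicate 2, the deepest library, were above the floor.

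The median spread of the 7 genes among samples was near that of all genes tested, which were not matched to them for counts. The SD of log-CPM within genotypes was 0.40 for Jun, 0.37 for Junb, 0.32 for Jund, 0.32 for Ier2, 0.24 for Egr1, 0.21 for Fos and 0.13 for Myc, on the log2 scale. Their median was 0.32, beside 0.28 over the 13305 genes tested. This SD includes counting error, which is larger for genes with fewer counts. Medians of the gene lists described below, cell type markers apart, ran from 0.19 (ERK cascade) to 0.35 (Myc network). Among the genes tested, Jun was at percentile 73.6 and Myc at percentile 7.42 of this SD. Counting error alone allows an SD of 0.068 for Jun, 0.059 for Myc, 0.13 for Fos and 0.14 for Junb. The highest sample was 2.35 times the lowest for Ier2, 2.18 times for Junb, 2.03 times for Jun, 1.77 times for Jund, 1.598 times for Egr1, 1.52 times for Fos and 1.343 times for Myc. The low value of WT replicate 4 set the range of Ier2 and Junb. This was also the sample with the high NSC, glial and neuronal marker levels given above, whose part in these values was not tested.

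**Figure D2:**
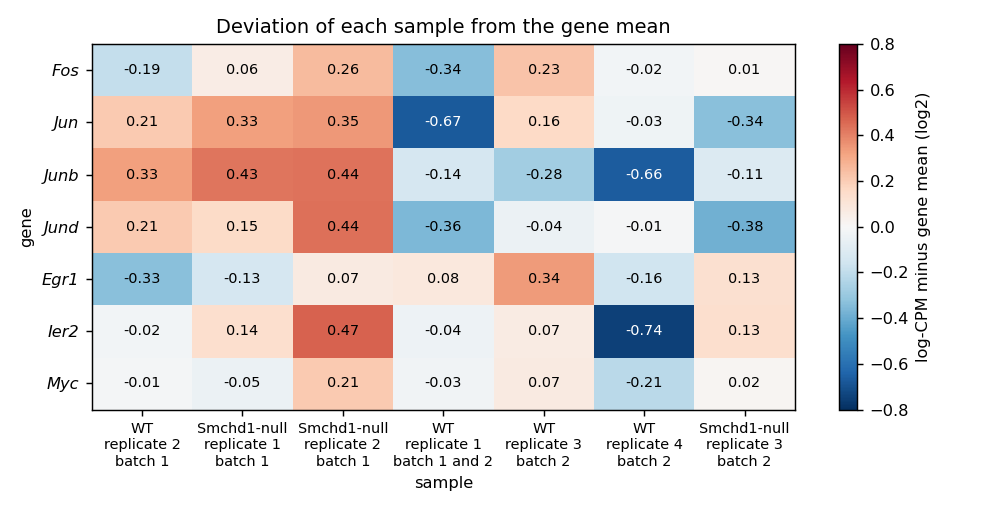
Log-CPM of each gene (rows) in each sample (columns, ordered by batch) minus the mean of that gene over the 7 samples, on the log2 scale, red above and blue below the mean. Jun, Junb and Jund are above their means in the 3 samples of batch 1 only, and Ier2 and Junb are lowest in WT replicate 4.

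The genotype comparison asked whether loss of Smchd1 goes with a change of these genes in growing NSCs. None of the 7 genes passed the adjusted p threshold of 0.25 used in the study or that of 0.05 (limma voom with sample quality weights, two-sided, Benjamini-Hochberg adjustment over 13305 genes). Among all genes tested, 1.08% passed at 0.25 and 0.0902% at 0.05. At an unadjusted p under 0.05 there were 2 of 7 genes, Junb and Ier2, where 13.9% of all genes tested were. By edgeR and by DESeq2, 0 of 7 passed 0.25 and 0 of 7 had an unadjusted p under 0.05. The estimate was positive for 6 of 7 genes, and for 6737 of the 13305 genes tested. The median log2 fold change was 0.29, beside 0.0049 over all genes tested. This fit does not include batch, and estimates from a fit with batch are given below.

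Junb had the largest estimate, a log2 fold change of 0.54 (SE 0.20, 95% interval 0.11 to 0.96, adjusted p = 0.305), from 22.8 ± 6.68 CPM (n = 4) to 30.6 ± 6.28 CPM (n = 3). Ier2 followed with 0.41 (SE 0.18, 95% interval 0.03 to 0.80, adjusted p = 0.338), from 31.0 ± 7.16 to 41.2 ± 5.78 CPM. It was the 1 gene of the 7 without overlap of the genotypes in log-CPM, as were 5.53% of all genes tested. Without WT replicate 4, the estimate was 0.43 for Junb and 0.30 for Ier2.

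The other 5 genes had intervals that included 0. The fit weights the samples, so its estimates are not the change between the plain means printed beside them. The weights were 2.03, 1.83 and 0.674 for Smchd1-null replicates 1 to 3. By voom without sample weights the estimate was 0.46 for Junb, 0.49 for Ier2, 0.19 for Jun and 0.13 for Jund. It was 0.21 for Fos, 0.11 for Myc and 0.045 for Egr1. For Jun the log2 fold change was 0.35 (95% interval -0.08 to 0.77, adjusted p = 0.430), from 104.5 ± 26.0 CPM in WT to 119.4 ± 29.5 CPM in Smchd1-null samples. For Jund it was 0.29 (95% interval -0.10 to 0.69, adjusted p = 0.458), from 53.2 ± 8.43 to 58.9 ± 16.3 CPM. For Fos it was 0.22 (95% interval -0.14 to 0.59, adjusted p = 0.552). For Myc it was 0.09 (95% interval -0.17 to 0.35, adjusted p = 0.750), from 135 ± 11.1 to 145 ± 13.8 CPM. For Egr1 it was -0.07 (95% interval -0.38 to 0.24, adjusted p = 0.830), from 213 ± 44.0 to 216 ± 20.2 CPM, and its sign depended on the fit. These intervals leave differences of up to 0.35 for Myc and 0.77 for Jun undetected at this depth and number of samples.

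Genotype and batch were not balanced, with 2 of 3 Smchd1-null samples but 1 of 4 WT samples in batch 1 only. The differences within batches, Smchd1-null minus WT in log-CPM, rested on 3 samples each. Ier2 was higher in Smchd1-null samples in batch 1 (0.32) and in batch 2 (0.47), and so was Junb (0.11 and 0.36). Jun differed by 0.13 in batch 1 and by -0.40 in batch 2, and Jund by 0.09 and -0.36. Fos differed by 0.35 and -0.09, Egr1 by 0.30 and 0.04, and Myc by 0.10 and 0.09. With the share of reads from batch 2 as a covariate, the genotype estimate became 0.19 for Junb, 0.05 for Jun, 0.01 for Jund and 0.34 for Ier2, with adjusted p from 0.602 to 0.993 for these 4. In the same covariate fit Egr1 was at 0.13, against -0.07 without it.

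The call also turned on single samples. Without Smchd1-null replicate 3, 4 of 7 genes passed an adjusted p of 0.25, namely Junb (0.0866), Jund (0.146), Jun (0.161) and Ier2 (0.164). Without WT replicate 2, 3 of 7 did, namely Junb (0.105), Ier2 (0.213) and Jun (0.236). The number of all genes passing 0.25 moved with them, from 144 to 3153 and 2924. Without any other single sample none of the 7 genes passed.

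The batches were compared next. In a fit with genotype and batch share, 2 of 7 genes passed an adjusted p of 0.05, where 12.4% of all genes tested did, and both were lower in batch 2. Junb was at 31.8, 34.2 and 34.3 CPM in the samples of batch 1 only and at 20.7, 15.8 and 23.4 CPM in those of batch 2 only (log2 difference -0.64, SE 0.15, adjusted p = 0.0180). Jund was at 63.1, 60.8 and 74.1 CPM in batch 1 only and at 53.0, 54.2 and 41.8 CPM in batch 2 only (-0.52, SE 0.15, adjusted p = 0.0372). WT replicate 1, with reads from both batches, had 22.95 CPM of Junb and 42.5 CPM of Jund, in the range of batch 2. Jun had an estimate of -0.46 (SE 0.17, adjusted p = 0.0823), Ier2 of -0.20 (adjusted p = 0.440), Myc of -0.04 (adjusted p = 0.852) and Fos of 0.02 (adjusted p = 0.950). Egr1 had the opposite sign, 0.32 (SE 0.12, adjusted p = 0.0970). The calls for Junb and Jund were lost with edgeR, with DESeq2 and with voom without sample weights, where Junb had an adjusted p of 0.0908 to 0.0965. They were also lost without WT replicate 2 and without Smchd1-null replicate 3, where 0 of all genes passed. The Jund call, but not that of Junb, was further lost without Smchd1-null replicate 1, Smchd1-null replicate 2 or WT replicate 3. The same held with the trend on gene length removed (Jund adjusted p = 0.106) and with libraries thinned to the smallest (0.0605). The Jund estimate was -0.17 (adjusted p = 0.911) without Smchd1-null replicate 3. The estimate for Jun depended on the samples kept: it passed without WT replicate 1 (adjusted p = 0.0491) and without WT replicate 3 (0.0380), but was -0.0055 (adjusted p = 0.996) without Smchd1-null replicate 3, and had an adjusted p of 0.761 without WT replicate 2.

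GC content moved with the batch difference. Across 13302 genes, the GC content of the longest transcript had a Spearman correlation of -0.41 with the log2 difference between batches, and of 0.29 with the genotype fold change; genes are not independent replicates. Jund, at 67.1%, was at the 99.8th percentile of GC content among the genes tested, Junb (62.6%) at the 98.8th and Ier2 (60.9%) at the 97.5th. Egr1 was at 57.3%, Jun at 55.5%, Myc at 53.3% and Fos at 51.9%, beside a median of 49.3% over all genes. With the trend of log-CPM on GC content removed from each sample, an alternative chosen after the data were seen, the batch difference was -0.27 for Junb (adjusted p = 0.290) and -0.05 for Jund (adjusted p = 0.867). In that fit Egr1 was the 1 gene of the 7 to pass, at 0.56 (adjusted p = 0.0238), and Ier2 turned to 0.12 (adjusted p = 0.715). The genotype estimate became 0.34 for Junb, 0.04 for Jund and 0.24 for Ier2. In that fit the batch difference was -0.27 for Jun and 0.09 for Fos, neither of which passed. Length moved with genotype too, with a Spearman correlation of -0.38 between gene length and genotype fold change across genes tested. The 7 genes were 1524 to 4484 bases long beside a median of 4160. With the length trend removed from each sample instead, the batch difference was -0.53 for Junb (adjusted p = 0.0366) and -0.38 for Jund (adjusted p = 0.106). The genotype estimate in that fit was 0.46 for Junb, 0.18 for Jund and 0.29 for Ier2. The part of GC content and length in the members' differences was not tested otherwise.

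**Figure D3:**
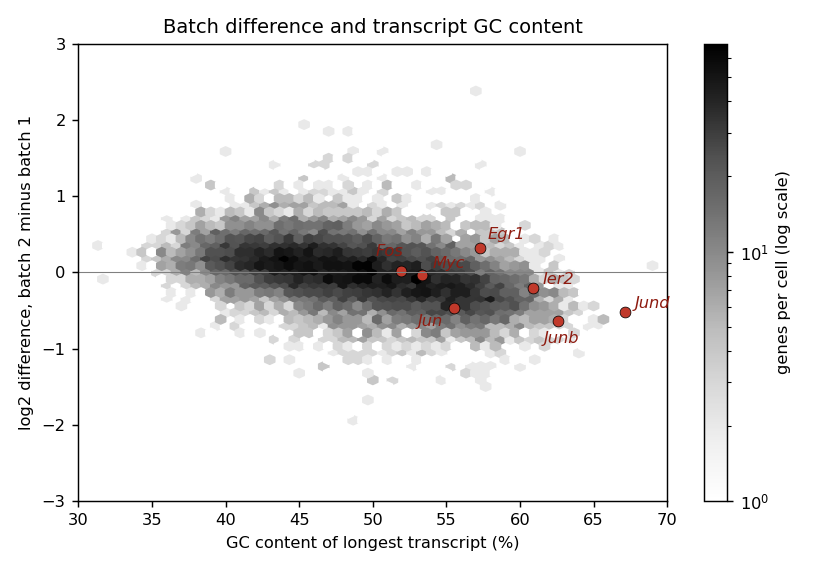
Log2 difference between batches (batch 2 minus batch 1, vertical axis) against GC content of the longest transcript in percent (horizontal axis), with the density of all genes tested in grey and the 7 genes in red. Jund and Junb lie at the GC-rich end and below 0, and Egr1 lies above 0 at 57.3%.

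Co-variation was examined over the 7 samples for the 21 pairs of the 7 genes, and no pair passed after Benjamini-Hochberg adjustment. The closest pairs were Ier2 with Myc, Jun with Jund, and Junb with Ier2. Jun and Jund had r = 0.90 (exact permutation p = 0.00595, adjusted p = 0.125) and rho = 0.89 (exact permutation p = 0.0123, adjusted p = 0.258), with r = 0.75 after the 2 samples farthest from the median of Jun were left out. Ier2 and Myc had r = 0.92 (exact permutation p = 0.0198, adjusted p = 0.168) and rho = 0.61 (exact permutation p = 0.167, adjusted p = 0.350), but r fell to 0.15 without the 2 samples farthest from the median of Ier2, on which this relation rested. Junb and Ier2 had r = 0.79 (exact permutation p = 0.0240, adjusted p = 0.168) and rho = 0.82 (exact permutation p = 0.0341, adjusted p = 0.336), and r was 0.10 without the 2 farthest samples and 0.49 without WT replicate 4. Fos and Jun, the classical AP-1 pair, had r = 0.68 (exact permutation p = 0.0972, adjusted p = 0.510) and rho = 0.68 (exact permutation p = 0.110, adjusted p = 0.350), and r = 0.05 without the 2 farthest. Each batch held only 3 samples of its own, too few for a value within batches. All 21 correlations share the same 7 libraries, with their depth and GC differences.

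The genes tested whose log-CPM followed Fos most closely over the 7 samples were Gm10362 (r = 0.98), Gm6109 (r = 0.97), Rpl31-ps17 (r = 0.96), Arl6ip6 (r = 0.96) and Rpl10 (r = 0.96). Rpl10 is a ribosomal protein gene, and Rpl31-ps17 is named as a pseudogene of another, to which reads of the parent gene could be assigned. These values are the highest over all other genes tested and are a description only.

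Other immediate early and growth-factor induced genes were compared in the same fit. Of 40 such genes 38 were tested, and 1 rose in Smchd1-null samples at an adjusted p under 0.25, while 0 fell; 7 had an unadjusted p under 0.05, and their median log2 fold change was 0.003. The 1 gene was Gadd45g, a growth arrest and DNA damage gene, at 58.6 ± 9.33 CPM in WT and 94.9 ± 30.03 CPM in Smchd1-null samples (log2 fold change 0.86, SE 0.19, adjusted p = 0.176). Gadd45g was also lower in batch 2 than in batch 1, by a log2 difference of -0.67 (adjusted p = 0.00956), and its call was lost with edgeR (adjusted p = 0.858). The matricellular gene Ccn2 had -2.24 (adjusted p = 0.287) on 0 to 16 counts per sample, and the kinase gene Plk2 0.34 (adjusted p = 0.30004). For this list and those below, the shares of all genes tested serve as background. They were 1.08% at an adjusted p under 0.25, 13.9% at an unadjusted p under 0.05 and 5.53% without overlap of the genotypes.

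Among the stress response genes, 13 of 15 were tested, 2 rose and 0 fell at 0.25, and the median log2 fold change was 0.19. Of the 13 genes, 4 had an unadjusted p under 0.05 and 1 had no overlap of the genotypes. Asns, the asparagine synthetase gene, was at 52.6 ± 7.58 CPM in WT and 82.6 ± 14.5 CPM in Smchd1-null samples, without overlap (log2 fold change 0.69, SE 0.15, adjusted p = 0.176). Atf5, a factor of the amino acid response, was at 19.7 ± 4.16 and 30.1 ± 6.55 CPM (0.76, SE 0.21, adjusted p = 0.233). Atf4, the central factor of that response, had 0.45 (adjusted p = 0.287) and did not pass. Neither call held with edgeR, where the adjusted p was 0.621 for Asns and 0.858 for Atf5, and that of Atf5 was lost with the batch covariate (0.446).

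A list of 22 genes of the ERK cascade, which acts upstream of the immediate early genes, was also compared. Of these 22 genes 0 rose and 1 fell at 0.25, with a median log2 fold change of -0.13. At an unadjusted p under 0.05 there were 6 of 22, and 3 had no overlap of the genotypes. The gene that fell was Fgfr3, an FGF receptor, from 101 ± 17.8 CPM in WT to 69.8 ± 9.08 CPM in Smchd1-null samples, without overlap (-0.51, SE 0.14, adjusted p = 0.233; 0.858 with edgeR and 0.367 without WT replicate 4). The MEK gene Map2k2 had 0.49 (adjusted p = 0.288) and the ERK gene Mapk3 0.40 (adjusted p = 0.296). Map2k2 was also lower in batch 2 than in batch 1, by a log2 difference of -0.58 (adjusted p = 0.0047). Within batches 1 and 2, the genotype difference was 0.10 and 0.20 for Map2k2, and 0.38 and 0.0062 for Mapk3. A further list of 12 genes held ERK feedback inhibitors and the transcription factor genes Etv4 and Etv5, which are not inhibitors. Of these 12 genes 0 passed and 0 had an unadjusted p under 0.05, with a median of -0.07. The closest were the phosphatase gene Dusp4 (0.47, adjusted p = 0.440), the Sprouty gene Spry2 (0.25, adjusted p = 0.449) and the factor gene Etv5 (-0.12, adjusted p = 0.639). By edgeR 0 of the genes in all these lists passed 0.25.

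Of 14 genes for factors that act on immediate early promoters, 0 passed, 3 had an unadjusted p under 0.05, and the median log2 fold change was -0.06. These 3 were the ternary complex factor gene Elk3 (-0.48, adjusted p = 0.312), Atf7 (-0.45, adjusted p = 0.315) and the SRF coactivator gene Mrtfb (-0.41, adjusted p = 0.348). Of 11 genes of the Myc network 0 passed, with 1 at an unadjusted p under 0.05 and a median of -0.21. They included the Max partner gene Mxd4 (-0.39, adjusted p = 0.346), the Myc paralogue Mycn (0.75, adjusted p = 0.399) and Mlxip (-0.32, adjusted p = 0.478). Of 10 other AP-1 partner and Jun kinase genes 8 were tested, 1 rose and 0 fell, with 1 at an unadjusted p under 0.05 and a median of 0.24. Mapk10, a Jun N-terminal kinase gene known from neurons, rose from 2.66 ± 1.06 CPM in WT to 8.24 ± 1.79 CPM in Smchd1-null samples, without overlap (1.602, SE 0.38, adjusted p = 0.187). Its call was lost with edgeR (adjusted p = 0.412) and held with DESeq2 (0.109). The neuron markers summed to 26.6 to 33.3 CPM in Smchd1-null samples and 29.6 to 77.3 CPM in WT. Fosl2, which encodes Fra-2, had 0.44 (adjusted p = 0.494) and Batf3 0.60 (adjusted p = 0.516).

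The 5 calls in these lists, Gadd45g, Asns, Atf5, Fgfr3 and Mapk10, were all lost when WT replicate 1, Smchd1-null replicate 1 or Smchd1-null replicate 2 was left out. Without WT replicate 4 only Gadd45g passed (adjusted p = 0.227), and without WT replicate 3 only Asns (0.162). Without WT replicate 2, 33 genes of the lists passed, as did 2924 of the 12891 genes tested. Without Smchd1-null replicate 3, 33 genes of the lists passed, as did 3153 of the 13395 genes tested.

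**Figure D4:**
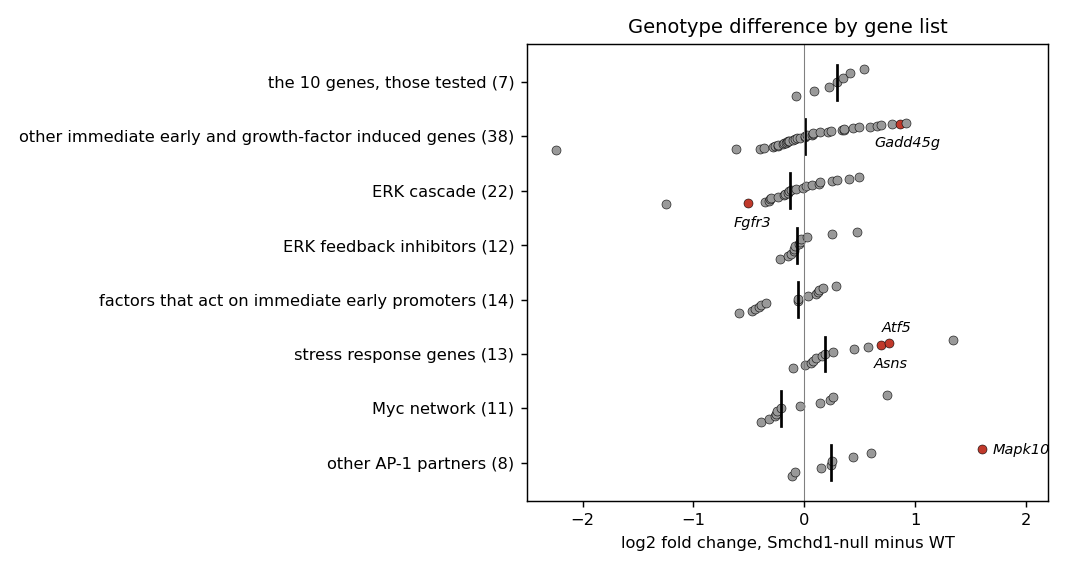
Log2 fold change of Smchd1-null over WT (horizontal axis) for each gene tested, by list (number tested in parentheses), with the list median as a black bar and genes with an adjusted p under 0.25 in red. The 7 tested of the 10 immediate early genes lie between -0.07 and 0.54 without a red point, and 5 red points lie in the other lists. The list of ERK feedback inhibitors also holds the transcription factor genes Etv4 and Etv5.

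In the annotation, Fos spans chr12:85473890-85477273, Fosb chr7:19302696-19310051, Fosl1 chr19:5447547-5455946, Jun chr4:95049034-95052222, Junb chr8:84974484-84978718, Jund chr8:70698949-70700616, Ier2 chr8:84661331-84662852, Atf3 chr1:191170296-191218039 and Myc chr15:61985391-61990374 (GRCm38, Gencode M21). All 10 genes are annotated as protein coding.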

How the data were processed

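Direct-cDNA nanopore reads of 7 NSC samples were processed by the authors, who base-called them with Guppy, aligned them to mm10 with minimap2 (2.17, per the labels) and assigned primary alignments to Gencode M23 genes with featureCounts, summing reads of a sample from both batches. The deposited values are raw, whole-number counts per gene and a gene length in bases; no normalisation was applied by the authors in these files. Reads of paralogues, pseudogenes and overlapping genes go to the gene of the primary alignment, and strand was not stated. The counts of WT replicate 1 cannot be split by batch.

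Symbols and positions came from Gencode M21, in which 55154 of 55335 identifiers matched without version (54587 with it, 181 not at all). Genes passed filterByExpr with genotype as group (13305 genes), and libraries were scaled by TMM. The fit was limma's voomWithQualityWeights with genotype, on all 7 samples, two-sided, with Benjamini-Hochberg adjustment, as in the study's methods; adjusted p-values without a tool's name are from it. The batch fit added the share of batch 2 (0, 0.5 or 1). Log-CPM used a prior count of 2. Correlations used exact permutation over 5040 orders. Promoter windows were RefSeq sequences.

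The 10 genes and all lists were chosen with earlier results of these data known. Genes named from a list were those with an adjusted p under 0.25 and the 3 of smallest p, and the 5 genes of highest r with Fos. Alternatives were unweighted voom, DESeq2, edgeR's quasi-likelihood test, other scalings and filters, batch share, replicate block, removal of length or GC trends (lowess, span 0.3), thinning and leaving out each sample. No 2 replicates were alike within sampling noise (chi-square per degree of freedom 2.65 to 21.1). Same-numbered samples of the genotypes deviated with correlations of -0.04, 0.36 and 0.09, so the numbers were not taken to pair samples. Software was R 4.3.3, limma 3.58.1, edgeR 4.0.16 and DESeq2 1.42.0.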

Additional observations from a re-analysis of the deposited data

Results flagged for a closer look

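The 3 results below met a rule for flagging. Ier2 in WT replicate 4 had a log-CPM of 4.38 on the log2 scale, while the other 3 WT samples lay between 5.08 and 5.19, a gap that exceeds the Dixon limit at 95%. Asns in WT replicate 3 had a log-CPM of 6.01, above the 5.60 to 5.64 of the other WT samples. Of 33 gene and group combinations tested for such a gap, 2 exceeded the limit, where chance gives about 1.65.

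Jun differed in sign between the batches, as did Jund (0.09 and -0.36) and Fos (0.35 and -0.09). Only Jun was flagged, because its genotypes did not overlap within either batch. With 3 samples per batch such a pattern can arise by chance, and no rate was computed for this rule. For Jun the Smchd1-null minus WT difference was 0.13 in batch 1, where both Smchd1-null samples were above the WT sample. It was -0.40 in batch 2, where the Smchd1-null sample was below both WT samples. The interaction of genotype with batch, fitted without WT replicate 1, was -0.53 on the log2 scale (SE 0.25, limma adjusted p = 0.999), so the difference between batches was not significant, and 0 of 13107 genes passed in that fit, which had 2 residual degrees of freedom.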

How the results depend on the processing

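No member passed an adjusted p of 0.25 for genotype under 19 of 21 alternatives, and leaving out single samples gave 0 to 4 of 7. The pathway lists held 5 genes at 0.25, but 0 with edgeR, unweighted voom and all genes with a count, 1 with DESeq2, thinning and batch share without WT replicate 1, 3 with batch share, the replicate block and length-trend removal with or without the block, and 0 to 33 leaving out samples. The count of 33 came from fits in which 2924 or 3153 of all genes passed. The batch count of 2 became 0 with edgeR, DESeq2, unweighted voom and all genes with a count, 1 with length-trend or GC-trend removal and thinning, and 0 to 3 leaving out samples. Co-variation went from 0 pairs to 1 (Ier2 with Myc) when centred within genotype, with the length trend removed or with the GC trend removed. Causes were not tested.

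With the replicate block, 0 of 7 genes passed and 129 genes overall; it is not a test of pairing, since the correlations of same-numbered samples were not all above 0.1.

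Signs turned for genotype in Egr1 (0.0238 with edgeR, 0.0221 with DESeq2, 0.0450 unweighted, 0.13 with batch share, 0.15 also without WT replicate 1, 0.0591 with the block, 0.0757 with length-trend removal and block, -0.17 to 0.10 leaving out samples), Jun (-0.0848) and Jund (-0.0668) with batch share without WT replicate 1, Jund leaving out samples (-0.0593 to 0.42) and Myc (-0.0083 thinned, -0.00068 to 0.14 leaving out samples). For batch they turned in Ier2 (0.12, GC trend), Myc (0.0404 length trend, 0.0516 thinned, 0.0855 GC trend, -0.10 to 0.0266 leaving out samples) and Fos (-0.0836 to 0.38 leaving out samples). Depth limits Fosb, Fosl1 and Atf3, which were at or near the floor.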
